A study of Mus musculus with 6 samples.

Results

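The 3 TGF-beta ligand genes (Tgfb1, Tgfb2 and Tgfb3), the 3 TGF-beta receptor genes (Tgfbr1, Tgfbr2 and Tgfbr3) and the 4 genes of latent TGF-beta-binding proteins (Ltbp1, Ltbp2, Ltbp3 and Ltbp4) were examined in melanoma grafts grown at different body sites. The genes were taken by symbol and are 10 of the 45777 genes in the deposited count matrix. RNA came from 3 B16F10 tumors of the hind footpad and 3 B16F10 tumors of the flank skin, with 1 library per tumor. B16F10 is a mouse melanoma cell line, and the study compared the weight-bearing footpad with the flank skin. According to the labels, every tumor grew in a Foxn1-/- host aged 8 weeks, and no other allele or agent is listed for either group. Foxn1-deficient (nude) mice lack a thymus and mature T cells but keep other host cells, and the study's methods also describe grafts of the line in C57BL/6J mice without naming the host of the sequenced tumors. The time from grafting to collection is not given for these tumors in the sources used here. The labels do not name the mouse of a tumor. The study counts as many mice for these data as there were tumors at one site and describes grafting at both sites of a mouse at once, so footpad and flank tumors may share hosts, but which would pair is not given. The p-values measure the spread between these tumors.

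TGF-beta is made as a precursor whose propeptide stays wrapped around the mature ligand and keeps it inactive. In the secretory pathway most of this latent complex is joined to a latent TGF-beta-binding protein, which tethers it to fibrillin and fibronectin in the extracellular matrix until integrins or proteases release the ligand. Free ligand binds the type II receptor, Tgfbr2, which phosphorylates the type I receptor, Tgfbr1, and Tgfbr1 activates Smad2 and Smad3. In tumors the pathway is best known for activating fibroblasts and inducing collagen and other matrix genes.

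Each tumor gave between 46529649 and 66364366 counted reads. Melanocytic marker genes were abundant in all 6 tumors, with summed levels of 10113 to 18758 CPM (reads scaled to a fixed library total) in the footpad and 14902 to 25658 CPM in the flank. Markers of lymphocytes were near the limit of detection, at 0.224 to 0.653 CPM in sum over 10 genes. Footpad tumor 2 stood apart in markers of surrounding tissue: its 10 keratinocyte markers summed to 810 CPM and its 10 skeletal muscle markers to 594 CPM, against at most 47.3 and 72.03 CPM in the other tumors. In such bulk samples fewer cells of a type and less RNA per cell cannot be told apart.

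Of the 10 genes, all passed the filter on low counts, and 1, Ltbp4, was higher in footpad tumors by the quasi-likelihood test of edgeR (adjusted p under 0.05 over 17210 genes). None was lower. Across all genes tested, 3.43% were called higher and 1.44% lower by this threshold, and 2.89% were called higher with a fold of 2 or more, which Ltbp4 also met. At an unadjusted p under 0.05, 6 of the 10 genes were higher and 0 were lower, where 14.8% and 10.5% of all genes tested met that mark. DESeq2, the tool named in the study's methods, called 4 of them higher (Tgfbr2, Tgfbr3, Ltbp3 and Ltbp4) and 0 lower, while calling 1685 genes higher and 1044 lower in all. The footpad values lay wholly above the flank values for 5 of the 10 genes, against 17.5% of all genes tested, and wholly below for 0, against 14.9%. The median log2 fold change was 0.74 over the 10 genes and -0.004 over all genes tested.

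**Figure D1:**
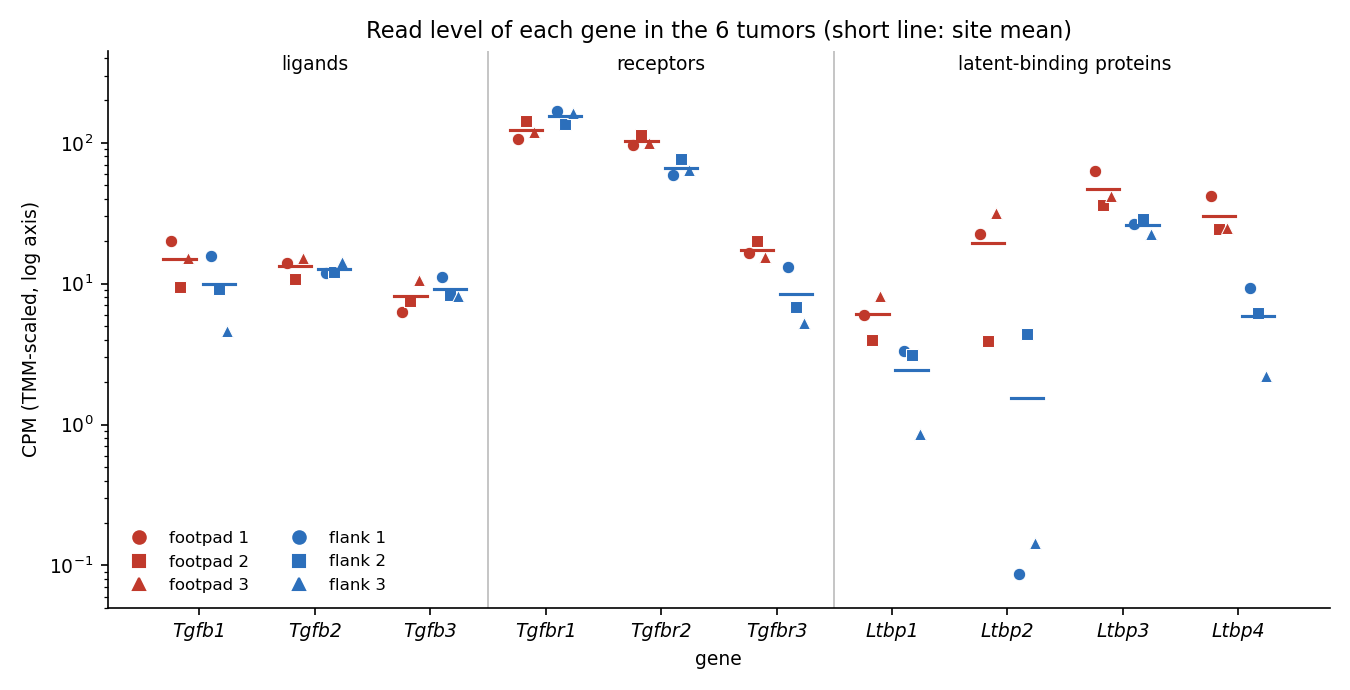
CPM (TMM-scaled, logarithmic axis) of each of the 10 genes in the 3 footpad (red) and 3 flank (blue) tumors, where a short line marks the site mean. Footpad and flank points are separate for Tgfbr2, Tgfbr3, Ltbp1, Ltbp3 and Ltbp4 and overlap for the other 5 genes, and Ltbp2 spans the widest range on this axis, from 0.0862 to 32.0 CPM.

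None of the 3 ligands passed the threshold, and the sites overlapped for each of them. Tgfb1 (chr7:25687002-25705077, GRCm38), the form most widely made by immune and stromal cells and stored in platelets, was at 19.9, 9.48 and 15.2 CPM in the footpad and 15.8, 9.24 and 4.65 CPM in the flank. The groups overlapped, and flank tumor 3 had the lowest value of the 6. The log2 fold change was 0.59 (SE 0.45, adjusted p = 0.448, edgeR), and it lay between 0.25 and 1.09 when 1 tumor at a time was left out. Beside it, 8 platelet markers summed to 26.2, 13.0 and 21.0 CPM in the footpad and 18.0, 12.8 and 2.75 CPM in the flank, again lowest in flank tumor 3. Of these, 0 of 7 tested genes passed the threshold, 1 (Pf4) had an unadjusted p under 0.05, and no marker was at 0 in all tumors. Pf4 was the largest part of the sum in every tumor. The sites overlapped for the other 6 tested markers, and 5 of the 7 had a log2 fold change above 0. The part of platelets in the Tgfb1 level was not tested.

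Tgfb2 (chr1:186622787-186709697), the form that depends most on a co-receptor for binding, varied least of the 3 ligands, at 13.99, 10.7 and 15.3 CPM in the footpad and 11.9, 12.1 and 14.3 CPM in the flank. The log2 fold change was 0.061 (SE 0.19, adjusted p = 0.873, edgeR) and turned to -0.087 with limma on log2(FPKM + 1), so that no direction can be given. Tgfb3 (chr12:86056743-86079041) was at 6.29, 7.57 and 10.6 CPM in the footpad and 11.2, 8.31 and 8.23 CPM in the flank, with overlapping groups and a log2 fold change of -0.18 (SE 0.26, adjusted p = 0.698, edgeR).

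Per transcript length, in the deposited FPKM values (fragments scaled by transcript length in kilobases and by sequencing depth), Tgfb1 was the leading ligand in 5 of 6 tumors. Tgfb1 reached 7.51, 4.09 and 6.35 FPKM in the footpad and 5.93, 4.11 and 1.90 FPKM in the flank. In flank tumor 3 it lay below both Tgfb2 (2.33 FPKM) and Tgfb3 (2.16 FPKM). Tgfb2 lay between 1.53 and 2.45 FPKM and Tgfb3 between 1.52 and 2.85 FPKM, and Tgfb3 was the higher of them in 4 of the 6 tumors. The summed FPKM of the 3 ligands was 10.99, 7.72 and 11.7 in the footpad and 10.5, 8.73 and 6.38 in the flank, and the groups overlapped. The share of each ligand in this sum overlapped too. By raw counts in place of FPKM the Tgfb3 share did not overlap. It was 15.6%, 27.2% and 25.8% in the footpad and 28.8%, 28.0% and 30.3% in the flank (two-sided exact permutation p = 0.1, the smallest that 3 tumors against 3 allow).

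The receptors were the most abundant of the 3 classes, and Tgfbr2 was the closest of them to the threshold. Tgfbr2 (chr9:116087695-116175363), the type II receptor that binds the ligand first, was at 96.3, 114 and 99.7 CPM in the footpad and 58.6, 76.7 and 64.6 CPM in the flank. The lowest footpad tumor lay above the highest flank tumor. The log2 fold change was 0.63 (SE 0.15) with an adjusted p of 0.0539 from edgeR, just short of the threshold. Leaving out 1 tumor at a time gave log2 fold changes of 0.54 to 0.74 and adjusted p values of 0.0635 to 0.167 from edgeR. Tgfbr1 (chr4:47353222-47414926), the type I receptor kinase, ran the other way, at 106, 143 and 119 CPM in the footpad and 169, 135 and 162 CPM in the flank. These groups overlapped by footpad tumor 2 and flank tumor 2, and the log2 fold change was -0.34 (SE 0.16, adjusted p = 0.235, edgeR).

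Tgfbr3 (chr5:107106567-107289629) encodes betaglycan, a co-receptor that presents ligand, above all TGF-beta2, to Tgfbr2. It was at 16.5, 20.02 and 15.4 CPM in the footpad and 13.2, 6.83 and 5.24 CPM in the flank. All footpad values were above all flank values, with flank tumor 1 closest to the footpad range. The log2 fold change was 1.04 (SE 0.34, adjusted p = 0.114, edgeR), with a call in 1 of the 6 fits that left out a tumor. Those fits ran from 0.79 without flank tumor 3 (adjusted p = 0.255, edgeR) to 1.52 without flank tumor 1 (adjusted p = 0.0346, edgeR).

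Within each tumor, Tgfbr1 and Tgfbr2 were nearly equal per length in the footpad, whereas Tgfbr1 led in the flank. The ratio of Tgfbr1 to Tgfbr2 FPKM was 0.909, 1.04 and 0.991 in the footpad and 2.39, 1.46 and 2.08 in the flank, with no overlap. This ratio was chosen after the values were seen and has no test. As a share of the summed receptor FPKM, Tgfbr1 took 46.4% ± 1.74 (SD, n = 3) in the footpad and 63.6% ± 5.13 in the flank. Tgfbr2 took 47.4% ± 1.56 and 33.1% ± 5.84, and Tgfbr3 6.19% ± 0.450 and 3.23% ± 1.51. The groups of each of these shares did not overlap, and each gave p = 0.1 in a two-sided exact permutation test, the smallest that 3 tumors against 3 allow (0.2 after Benjamini-Hochberg adjustment over 10 shares). Shares within a class sum to 100% and are not independent. The summed receptor FPKM itself overlapped, at 33.8, 48.9 and 40.3 in the footpad and 35.9, 39.6 and 37.8 in the flank.

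**Figure D2:**
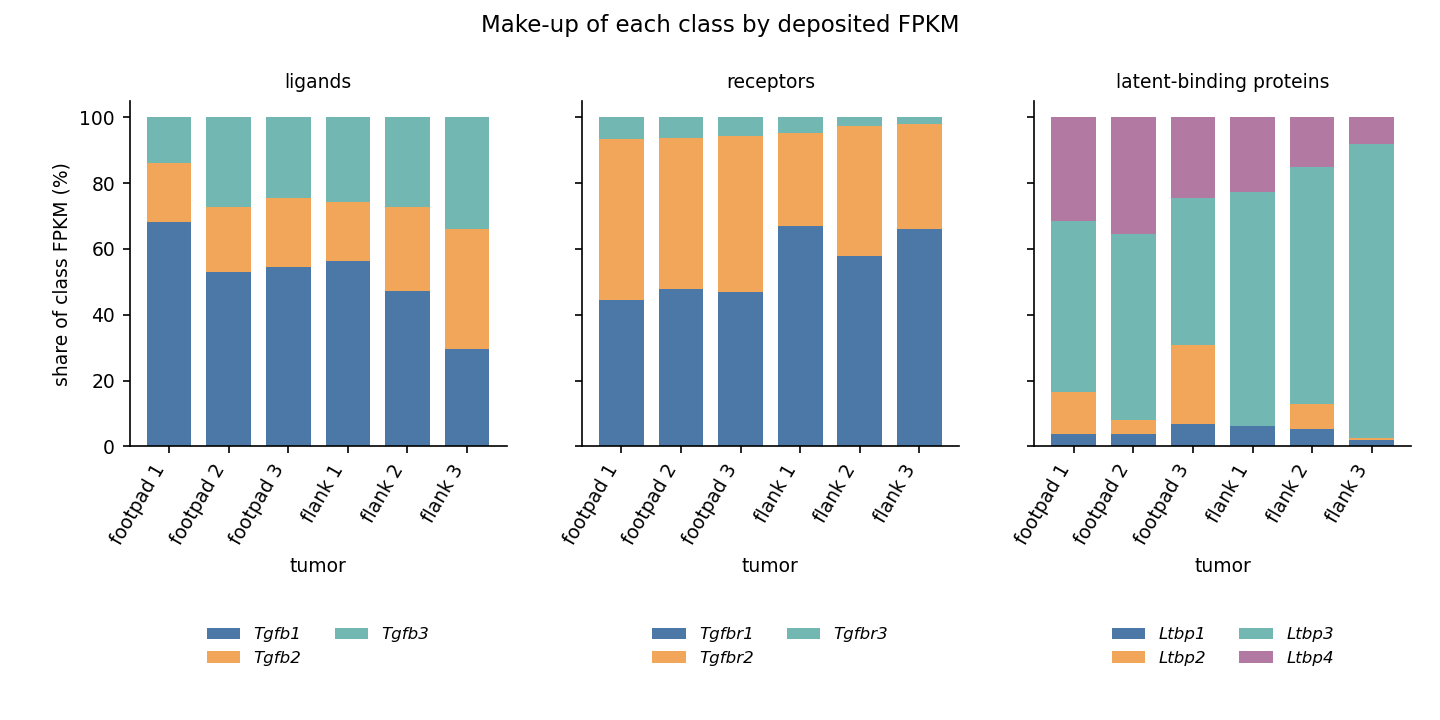
Share (%) of each gene in the summed FPKM of its class, for the ligands, the receptors and the latent-binding proteins, with 1 bar per tumor. The Tgfbr2 and Ltbp4 segments are larger in each footpad tumor than in any flank tumor, whereas ligand shares overlap between sites.

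The latent-binding proteins held the 1 called gene, and their 4 log2 fold changes were all above 0. Ltbp4 (chr7:27305140-27339720), which carries latent TGF-beta1 and takes part in elastic fiber assembly, was at 41.7, 24.6 and 25.0 CPM in the footpad and 9.28, 6.18 and 2.22 CPM in the flank. Every footpad value exceeded the highest flank value by more than the whole flank range. The means were 30.4 ± 9.76 and 5.89 ± 3.54 CPM (SD, n = 3 each), a fold of 5.17 (log2 fold change 2.37, SE 0.49, adjusted p = 0.0411, edgeR). The size held between 1.97 and 2.85 on the log2 scale when 1 tumor at a time was left out, but the call held in 2 of those 6 fits. The adjusted p from edgeR was 0.141 without footpad tumor 1, 0.125 without footpad tumor 3, 0.0925 without flank tumor 2 and 0.0772 without flank tumor 3. It was 0.0481 without footpad tumor 2, the tumor with the high keratinocyte and muscle markers, and 0.0497 without flank tumor 1. With the replicate number as a block it was 0.0694 (edgeR), although the labels do not tie the numbers to mice.

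Ltbp3 (chr19:5740900-5758536), which binds latent TGF-beta and is needed for skeletal and tooth development, was at 62.7, 36.0 and 41.6 CPM in the footpad and 26.5, 28.8 and 22.6 CPM in the flank. The groups did not overlap, and the log2 fold change was 0.85 (SE 0.22, adjusted p = 0.0695, edgeR). Of the 6 fits that left out a tumor, 1 called it, with an adjusted p of 0.0467 from edgeR without footpad tumor 2. Without footpad tumor 1 the log2 fold change was 0.58 (adjusted p = 0.165, edgeR), and without flank tumor 3 the adjusted p from edgeR was 0.211. Ltbp1 (chr17:75005480-75392512), the first described carrier of the latent complex, was low throughout, at 5.99, 3.97 and 8.23 CPM in the footpad and 3.33, 3.10 and 0.863 CPM in the flank. Its groups did not overlap either, with a log2 fold change of 1.32 (SE 0.52, adjusted p = 0.171, edgeR).

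Ltbp2 (chr12:84783212-84876558), the family member that does not bind latent TGF-beta and associates with fibrillin microfibrils, varied most for its level among the 10 genes. It was at 22.7, 3.92 and 32.0 CPM in the footpad (1009, 269 and 1566 reads) and 0.0862, 4.36 and 0.144 CPM in the flank (5, 255 and 9 reads). Flank tumor 2 lay above footpad tumor 2, so the groups overlapped, while the other footpad and flank tumors were far apart. The log2 fold change was 3.67 with a standard error of 1.42 (adjusted p = 0.161, edgeR). Without flank tumor 2 it was 7.36 with an adjusted p of 0.0319 from edgeR, so that 1 tumor decided both its size and its call.

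**Figure D3:**
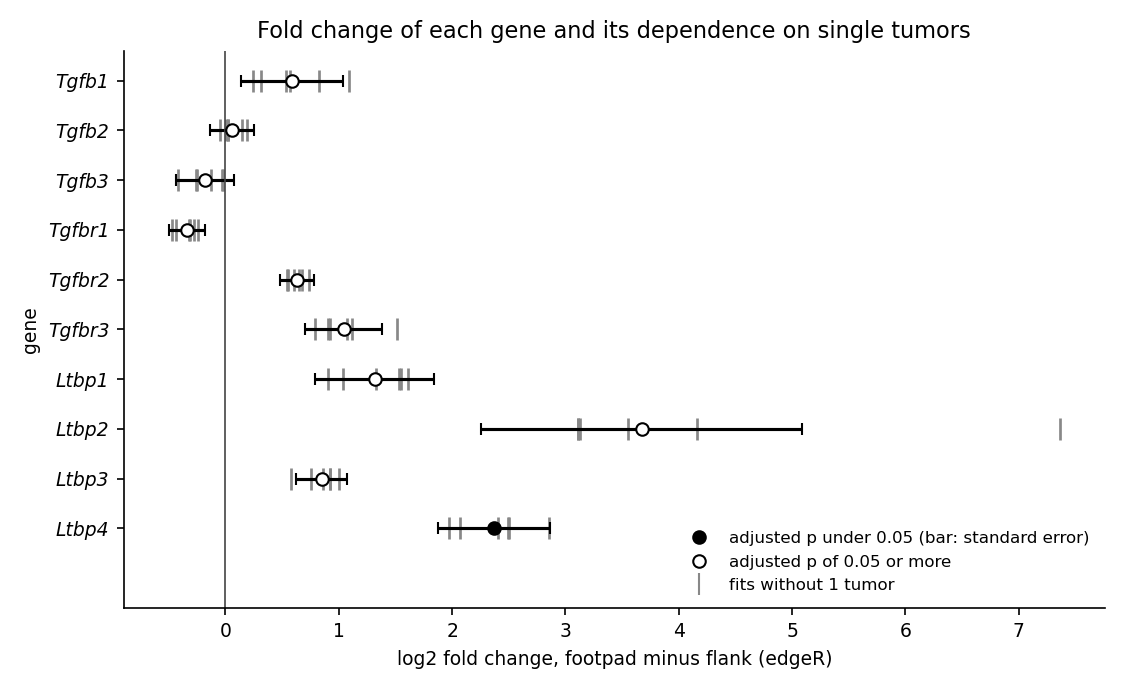
Log2 fold change of each gene, footpad minus flank, from edgeR (circle, filled where the adjusted p is under 0.05; the bar is the standard error) with the values from the 6 fits that left out 1 tumor each (ticks). Ltbp4 (2.37) is the only filled circle, and the Ltbp2 ticks reach from 3.11 to 7.36.

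Promoter sequence was read for the 3 genes of the 10 with the smallest adjusted p, to show the DNA in which motifs of pathway and partner factors were searched. RefSeq promoter windows (GRCm38.p6), each of 250 bases before the transcription start and 30 from it on, were given for 8 of the 10 genes (12 windows). Tgfb3 and Tgfbr3 had no entry. The letters searched on both strands were CAGACA (Smad), TGANTCA (AP-1) and GGAATG (TEAD, the DNA-binding partner of YAP and TAZ), and capitals mark a match. The windows shown are that of the outermost of 3 listed Ltbp4 starts (chr7:27337583-27337862, minus strand), Ltbp3 (chr19:5740650-5740929, plus strand) and Tgfbr2 (chr9:116175334-116175613, minus strand).
Ltbp4: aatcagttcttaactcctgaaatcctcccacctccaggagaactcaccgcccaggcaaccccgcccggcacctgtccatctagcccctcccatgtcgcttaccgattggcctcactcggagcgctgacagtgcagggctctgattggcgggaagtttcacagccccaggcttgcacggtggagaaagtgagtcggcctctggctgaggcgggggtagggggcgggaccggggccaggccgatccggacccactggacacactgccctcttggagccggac
Ltbp3: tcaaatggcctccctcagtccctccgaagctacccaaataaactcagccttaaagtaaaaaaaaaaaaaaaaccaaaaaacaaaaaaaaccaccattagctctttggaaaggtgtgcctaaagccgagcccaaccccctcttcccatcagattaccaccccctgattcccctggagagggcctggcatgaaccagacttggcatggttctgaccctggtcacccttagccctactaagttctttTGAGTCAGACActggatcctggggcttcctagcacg
Tgfbr2: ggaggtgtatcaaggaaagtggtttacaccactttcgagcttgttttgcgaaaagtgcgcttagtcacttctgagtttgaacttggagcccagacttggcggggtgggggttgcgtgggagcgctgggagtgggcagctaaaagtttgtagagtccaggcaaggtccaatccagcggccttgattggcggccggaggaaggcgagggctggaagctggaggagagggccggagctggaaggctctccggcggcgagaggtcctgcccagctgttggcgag

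In the Ltbp3 window a TGAGTCA match to AP-1 ran from base -6 to 1, counted with the start as base 1 and no base 0, and a CAGACA match to Smad ran from base -1 to 5, so that the matches share letters. The Ltbp4 and Tgfbr2 windows held none of the 3 motifs. Over the windows of the 8 genes, a Smad match was present for 4 (Tgfb2, Tgfbr1, Ltbp1 and Ltbp3), an AP-1 match for 1 and a TEAD match for 0. For Tgfbr1 and Ltbp1 the Smad match lay only in window 2 of the 2 listed for each. These counts are by gene, with up to 3 windows per gene, whereas the shares that follow are by window. They are therefore not like measures. Of all 32851 windows of the same length, 19.6% held the Smad letters, 7.46% the AP-1 letters and 13.9% the TEAD letters. GC content was 64.3% for Ltbp4, 48.6% for Ltbp3 and 59.6% for Tgfbr2, beside a median of 52.5% over all windows. A match to letters is a description of the window only.

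Summed over the 4 latent-binding proteins, FPKM was 21.1, 12.9 and 18.0 in the footpad and 6.50, 8.35 and 4.88 in the flank. The sums did not overlap, whereas those of the ligands and of the receptors did. Set against the summed ligand FPKM in the same tumor, the latent-binding proteins stood at 1.92, 1.67 and 1.55 times the ligand level in the footpad and at 0.619, 0.956 and 0.764 times in the flank. These sums and ratios were also chosen after the values were seen and carry no test. Within the class, Ltbp3 was the leading gene per length in all 6 tumors and took 51.1% ± 5.83 (SD, n = 3) of the sum in the footpad and 77.6% ± 10.4 in the flank. Ltbp4 took 30.4% ± 5.57 and 15.3% ± 7.35. Both shares were without overlap between sites, each with p = 0.1 in the two-sided exact permutation test (adjusted 0.2). By raw counts in place of FPKM the Ltbp4 shares overlapped, since footpad tumor 3 had 23.4% and flank tumor 1 had 23.7% (exact permutation p = 0.2). Shares of Ltbp1 (4.74% ± 1.67 and 4.50% ± 2.14) and Ltbp2 (13.8% ± 9.94 and 2.67% ± 4.21) overlapped.

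Summed markers of fibroblasts, endothelium and pericytes did not overlap between sites either. The 12 fibroblast markers summed to 2811, 2854 and 3839 CPM in the footpad and 166, 468 and 186 CPM in the flank, and 7 of the 12 passed the threshold, all higher. Col3a1 was the largest part in each footpad tumor, at 1279, 1493 and 2069 CPM. Its flank levels were 35.8, 201 and 49.6 CPM. Of the 12, 10 were wholly higher in the footpad. Pdpn (log2 fold change 0.23, adjusted p = 0.572, edgeR) and Fbln1 (0.30, adjusted p = 0.335, edgeR) overlapped between sites. The study also describes high collagen gene expression in melanoma cells. The 9 endothelial markers summed to 315 to 357 CPM in the footpad and 187 to 223 CPM in the flank, with 2 of 9 called higher. The 8 pericyte and smooth muscle markers summed to 432 to 474 CPM and 230 to 295 CPM, with 2 of 7 tested genes called higher. The largest part of this sum in every tumor came from Mcam. Its level was 292, 262 and 291 CPM in the footpad and 139, 212 and 170 CPM in the flank. Of the 7 tested genes, 4 were wholly higher in the footpad, and 3 overlapped between sites (Rgs5, Myh11 and Des). The 2 called were Cspg4 and Pdgfrb. Whether the Mcam and Cspg4 RNA came from pericytes or from the B16F10 cells was not tested. None of these 3 lists had a marker at 0 in all tumors. Their part in the levels of Ltbp1 to Ltbp4, Tgfbr2 and Tgfbr3 was not tested. The 10 macrophage markers summed to 212 to 267 CPM in the footpad and 153 to 203 CPM in the flank, with 1 of 10 called higher. The largest part of this sum in every tumor was Mertk, at 79.2 to 112 CPM in the footpad and 89.6 to 134 CPM in the flank. Mertk ran the other way (log2 fold change -0.19, adjusted p = 0.607, edgeR), while 9 of the 10 were above 0. The sites overlapped for 6 of the 10, and 4 were wholly higher in the footpad.

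**Figure D4:**
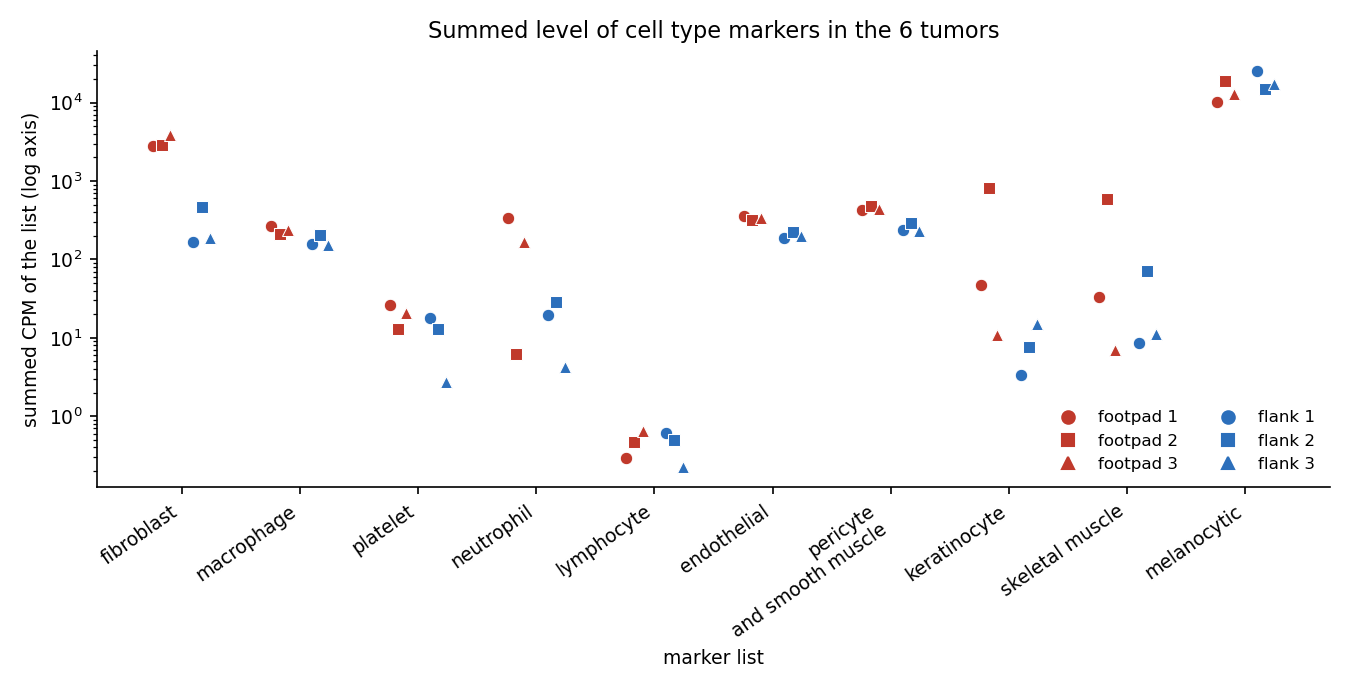
Summed CPM (logarithmic axis) of each cell type marker list in the 3 footpad (red) and 3 flank (blue) tumors. The fibroblast, macrophage, endothelial and pericyte sums of the 2 sites do not overlap, the fibroblast sums being the farthest apart (2811 to 3839 against 166 to 468 CPM), and footpad tumor 2 is alone at 810 CPM in keratinocyte markers.

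The other genes of the pathway were read from 3 lists of textbook members, holding 67 different genes. Of 18 signal transduction genes, 1 was called higher and 0 lower, against 3.43% and 1.44% of all genes, and 8 had an unadjusted p under 0.05, all higher (14.8% of all genes tested were higher by that mark). The one called was Smurf1, a ubiquitin ligase that marks receptors and Smads for degradation, at 129, 102 and 105 CPM in the footpad and 56.5, 58.6 and 62.2 CPM in the flank (log2 fold change 0.92, SE 0.14, adjusted p = 0.0205, edgeR). The call was lost without footpad tumor 1, footpad tumor 3, flank tumor 2 or flank tumor 3, each leaving 0 of the 18, while 3 were called without footpad tumor 2, and DESeq2 called 7 of the 18. The list's largest differences that did not pass were Pmepa1, a feedback inhibitor of Smad signaling (log2 fold change 2.77, adjusted p = 0.0721, edgeR), and Smad7, the inhibitory Smad (1.02, adjusted p = 0.115, edgeR). Smad7 was at 16.8, 8.71 and 12.5 CPM in the footpad and 8.81, 4.84 and 5.11 CPM in the flank, where flank tumor 1 reached above footpad tumor 2. The median log2 fold change of the list was 0.36.

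Of 25 genes whose products process, anchor or activate the latent complex, 23 were tested (Itgb6 and Plg had too few reads), and 6 were called higher and 0 lower, with 14 higher and 0 lower at an unadjusted p under 0.05 (14.8% and 10.5% of all genes tested) and a median log2 fold change of 1.57. The count was 10 without footpad tumor 2, 1 without footpad tumor 1, and 0 without footpad tumor 3 or without flank tumor 3, and DESeq2 called 14 higher and 0 lower. Fn1, which encodes the fibronectin that latent-binding proteins attach to, was at 1420, 833 and 998 CPM in the footpad and 236, 262 and 190 CPM in the flank (log2 fold change 2.24, SE 0.24, adjusted p = 0.0105, edgeR). Fbn1, the fibrillin of matrix microfibrils, was at 199, 266 and 236 CPM in the footpad and 8.59, 39.1 and 9.57 CPM in the flank (3.61, SE 0.61, adjusted p = 0.0253, edgeR). The RNA of these anchoring genes was higher beside that of Ltbp4, and flank tumor 2 had the highest flank value of both Fn1 and Fbn1. Lrrc32, which holds latent TGF-beta at the cell surface, was low, at 7.86, 4.21 and 6.02 CPM in the footpad and 0.431, 1.11 and 0.447 CPM in the flank (3.18, SE 0.48, adjusted p = 0.0205, edgeR). The other 3 called were the protease gene Bmp1 (1.16) and the small proteoglycan genes Bgn (3.30) and Dcn (3.56), on the log2 scale. Mmp9, a gelatinase (3.86, adjusted p = 0.112, edgeR), and Thbs1, a thrombospondin known as an activator of the latent complex (3.26, adjusted p = 0.0607, edgeR), had large differences that did not pass. Mmp9 was at 31.0, 0.583 and 12.3 CPM in the footpad and 0.448, 2.02 and 0.543 CPM in the flank, and Thbs1 at 559.7, 82.4 and 332 CPM in the footpad and 26.2, 63.4 and 12.4 CPM in the flank, both lowest of the footpad in tumor 2. Beside them, 10 neutrophil markers summed to 338, 6.29 and 167 CPM in the footpad and 19.6, 28.5 and 4.22 CPM in the flank, in the same order within the footpad. Of these markers 0 of 7 tested passed the threshold, 5 had an unadjusted p under 0.05, all higher, and Mpo was at 0 in all tumors. Tgfb1, too, was lowest of the footpad in tumor 2 and highest in tumor 1. In the flank, the neutrophil sum and Thbs1 were highest in tumor 2 and lowest in tumor 3. Mmp9 there was highest in tumor 2 and lowest in tumor 1, and Tgfb1 was highest in tumor 1 and lowest in tumor 3. The part of neutrophils in these levels was not tested.

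Of 28 genes known to be induced by TGF-beta, 12 were called higher and 0 lower, with 20 higher and 1 lower at an unadjusted p under 0.05 (14.8% and 10.5% of all genes tested) and a median log2 fold change of 1.42. The count was 5 without flank tumor 1, 1 (Fn1) without footpad tumor 1, and 0 without footpad tumor 3 or without flank tumor 3, and DESeq2 called 19 higher and 1 lower (Adam12, log2 fold change -0.68 in edgeR, named here after its value was seen). The 8 with the smallest adjusted p were Fn1, the collagen genes Col1a1 (4.10), Col3a1 (4.08) and Col1a2 (3.74), the matricellular gene Postn (4.09), the cell cycle inhibitor Cdkn2b (2.61), the protease inhibitor Timp1 (1.54) and the smooth muscle actin gene Acta2 (1.49), on the log2 scale. Col1a1 was at 686, 543 and 648 CPM in the footpad and 15.01, 74.3 and 19.9 CPM in the flank, with flank tumor 2 the highest of its group. Timp1 was at 43.4, 24.7 and 44.0 CPM in the footpad and 13.3, 14.3 and 11.1 CPM in the flank, and Cdkn2b did not reach 1 CPM in any tumor. Lox, a collagen-crosslinking enzyme (4.53, adjusted p = 0.0592, edgeR), and Snai1, a transcription factor of mesenchymal change (3.69, adjusted p = 0.130, edgeR), did not pass. The list holds matrix genes that fibroblasts express in any case. Of the 67 pathway genes, 4 are also in the fibroblast marker list: Col1a1, Col1a2 and Col3a1 here, and Dcn among the latent complex genes. The summed levels of that marker list are given above, and the part of fibroblast content in these counts was not tested.

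**Figure D5:**
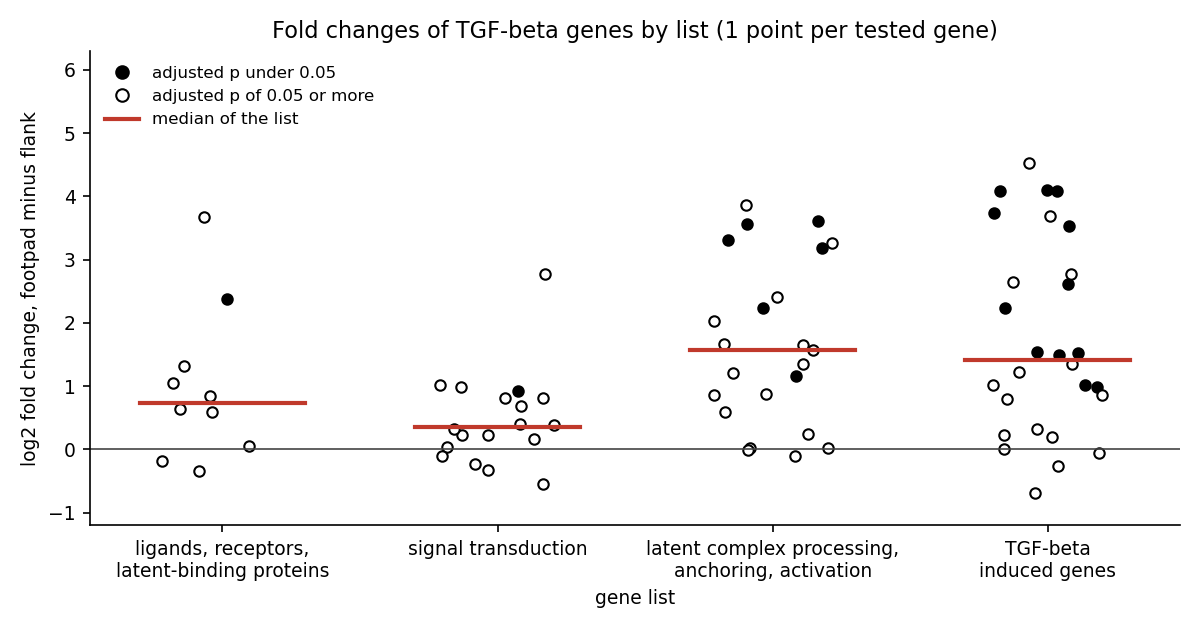
Log2 fold change, footpad minus flank, of each tested gene in the 10 ligand, receptor and latent-binding genes and in the 3 pathway lists (filled where the adjusted p from edgeR is under 0.05; the red line is the list median). Medians are 0.74 for the 10 genes, 0.36 for signal transduction, 1.57 for the latent complex and 1.42 for induced genes.

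The genes with the most similar profile over the 6 tumors were found by the root mean square difference of log2 CPM, each gene centred on its own mean, among 13602 genes with a mean of at least 1 CPM. Nearest to Ltbp4 were Anpep (aminopeptidase N, 0.217), Atp2b4 (a plasma membrane calcium pump, 0.249) and the homeobox gene Meox1 (0.305). Atp2b4 was at 47.996, 29.6 and 29.2 CPM in the footpad and 11.1, 8.35 and 4.202 CPM in the flank, highest in footpad tumor 1 and lowest in flank tumor 3, as was Ltbp4. Nearest to Tgfb1 were Dubr (0.148), Bcl2l1 (an inhibitor of apoptosis, 0.159) and Gbp2 (an interferon-inducible GTPase, 0.185). For Tgfb2 they included 1700010I14Rik (0.0524) and Det1 (0.0609), and for Tgfb3 they were Trmt112-ps2 (0.0638), Alg12 (0.0677) and Zfp748 (0.0774). Among the 10 genes themselves the closest pairs were Tgfb3 with Tgfbr1 (0.262), Tgfb2 with Tgfb3 (0.322) and Ltbp3 with Tgfbr2 (0.334).

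Some reads could be shared with overlapping genes, because the use of strand in counting is not given in the sources used here. In the GENCODE M21 annotation, Ltbp2 shares 764 exon bases with the antisense gene D030025P21Rik, which had at most 4 reads in any tumor. Tgfb2, Tgfb3 and Tgfbr3 share 124 to 297 exon bases with the annotated genes Gm29491, Gm37804, Gm48008 and Gm43422, whose reads were not used here. No exon overlap was found for Ltbp4, Ltbp1, Tgfbr1, Tgfbr2 or Tgfb1.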

How the data were processed

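RNA of 3 footpad and 3 flank B16F10 tumors was analysed, 1 library each, grouped by the labels. The authors extracted RNA with the RNeasy kit, made stranded TruSeq libraries, trimmed reads with Trimmomatic and aligned them to mm10 with HISAT2 2.1.0; the submitters' processing notes also list FastQC 0.11.7. The deposited read counts per RefSeq gene are whole numbers without normalization, and the deposited FPKM values were scaled by the authors for depth and transcript length. Which program counted the reads, its use of strand and the treatment of reads that match several genes are not given in the sources used here. The methods speak of isolated tumor cells and the labels of removed tumors, and how tumor cells were parted from other cells is not described.

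Counts were tested in R 4.3.3 with edgeR 4.0.16 (TMM, filterByExpr at its defaults, glmQLFit and glmQLFTest) and Benjamini-Hochberg adjustment over 17210 genes. The standard error was taken as the log2 fold change divided by the square root of F. CPM values are TMM-scaled. Depth was 46529649 to 66364366 reads, so that 3 reads, taken as the limit of detection, came to 0.0438 to 0.0673 CPM; the common biological coefficient of variation was 0.338. The 10 genes are all named. Of each pathway list, up to 8 called genes with the smallest adjusted p and the 2 largest differences that did not pass are named. Profile likeness used a prior count of 1, and the 3 nearest genes were sought for each ligand and called gene; some genes met by these rules are not reported here. The genes and lists were chosen with earlier results of these data known. Alternatives were DESeq2 1.42.0, limma 3.58.1 on log2(FPKM + 1) and log2(FPKM + 0.1), upper-quartile scaling, no filter, at least 10 counts in every tumor, a replicate block and leaving out each tumor.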

Additional observations from a re-analysis of the deposited data

How the results depend on the processing

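Of the 10 genes, edgeR called 1 higher; DESeq2 called 4, a minimum of 10 counts in every tumor (which removed Ltbp2) and upper-quartile scaling each 2 (Ltbp4 and Tgfbr2), and fits without 1 tumor 0 to 2. Over all genes, 590 were higher and 248 lower, against 1685 and 1044 with DESeq2, and 0 to 713 and 0 to 274 without 1 tumor. For signal transduction the count of 1 became 7 with DESeq2, 2 with the 10-count minimum, 2 with upper-quartile scaling and 0 to 3 without 1 tumor; for the latent complex 6 became 14, 10 with the 10-count minimum, and 0 to 10; for induced genes 12 became 19 (and 0 lower became 1) and 0 to 11. With footpad tumor 3 left out, 0 genes were called while an unadjusted p under 0.05 was met by 2061 genes in the higher and 1228 in the lower direction. With the replicate number as a block (replicate block), which the labels do not tie to mice and under which tumors of the same number deviated from their site means with r of 0.0544, -0.0965 and -0.115 across genes, no tumor being closest to its own number, edgeR called 0 of all genes, 0 of the 10 and 0 of each pathway list, while an unadjusted p under 0.05 was met by 2125 genes in the higher and 1426 in the lower direction and by 4 of the 10; Ltbp4 then had an adjusted p of 0.0694 (edgeR) and 0.0411 without the block. Tgfb2 changed sign, from 0.061 to -0.087 with log2(FPKM + 1), -0.13 with log2(FPKM + 0.1) and -0.049 to 0.19 without 1 tumor (negative without footpad tumor 3), never past the threshold. The Ltbp1 share difference of 0.235 percentage points became -0.382 with raw counts and -0.977 to 1.05 without 1 tumor. The number of the 10 genes with footpad values wholly below the flank was 0, and 0 to 1 without 1 tumor. The cause of these changes was not tested. Shares with lengths of the longest RefSeq transcript were not computed. Depth limited Ltbp2 in the flank, where 5 and 9 reads stood behind the lower values.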

Other observations

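The read count and the FPKM of a gene in the same tumor together imply a transcript length. Each implied length was divided by a factor for its tumor, to put the tumors on a common scale. This factor was the median of the lengths relative to each gene's own median, over genes with at least 50 reads in every tumor. For Tgfb2, which has 4 transcripts in the RefSeq table, the implied length so scaled was 6541, 7351 and 6332 bases in the footpad and 5776, 5882 and 6104 bases in the flank, without overlap between sites. It is the gene of the 10 in which the length differed most, with a highest-to-lowest ratio of 1.27, ahead of Ltbp2 (1.22) and Ltbp1 (1.21), and the other 7 genes had ratios of at most 1.08. Of 12327 genes with at least 50 reads in every tumor, 14.8% had a ratio of 1.1 or more, and 1.29% had such a ratio together with footpad lengths wholly above flank lengths. The log2 fold change of Tgfb2 was 0.061 by reads and -0.13 by log2(FPKM + 0.1), neither past the threshold, and the part of the length in this was not tested.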
